A study of Mus musculus with 6 samples.

Results

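The odorant receptor genes of mouse chromosome 17 were compared between sFlt1 and control mice. They were chosen by position and gene type: of the 1162 receptor genes in the deposited receptor table, 53 lie on chromosome 17 and are not typed as pseudogenes. Another 2 receptors of this chromosome carry a pseudogene type, and 1107 receptors lie on other chromosomes. The rule itself uses no measured value, but it was set with earlier results of these data known. Of the 53, 49 lie in 1 block from Olfr90 to Olfr136 (chromosome 17, 37394763 to 38647534, GRCm39), called the MHC block here because H2-M3 and H2-M2, genes of the major histocompatibility complex (MHC), lie inside it. The other 4, Olfr55, Olfr239, Olfr1564 and Olfr63, form a proximal block (33387421 to 33494618) that ends 699 kb before H2-K2, the first of the 45 genes with H2- symbols on this chromosome. By position, then, "MHC-linked" describes the 49 more closely than the 4.

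Each mature olfactory sensory neuron transcribes 1 odorant receptor gene from 1 allele, so the RNA of a receptor in bulk tissue reflects both how many neurons chose it and how much RNA each holds, and the 2 cannot be told apart here. Odorant receptors are G protein-coupled receptors that signal through the olfactory G protein, adenylyl cyclase and a cyclic nucleotide-gated channel. The receptors beside the MHC class I genes on mouse chromosome 17 have a counterpart cluster at the human MHC, and the linkage has long been discussed in work on odor-guided mate choice. Sensory neurons project their axons to the olfactory bulb, and their survival depends in part on contact with it.

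The data are gene counts from bulk RNA of dissected nasal conchae, labelled olfactory epithelium, of 3 sFlt1 mice and 3 control mice. All 6 were c57Bl6/ICR crossbred mice, labelled male, killed at 3 months of age. The sFlt1 mice came from crossing a camk2a-tTa line with a tet-sFlt1 line. The first drives a tetracycline-repressed activator from the Camk2a promoter, which is active in forebrain neurons, and the second carries soluble Flt1, a decoy receptor for vascular endothelial growth factor. Tetracycline was exchanged for water at embryonic day 13.5, which lets the transgene be expressed from then on. The olfactory bulb of sFlt1 replicates 1, 2 and 3 was 28%, 29% and 14% of its normal size on MRI scans taken at 2 months. The controls are labelled WT, without treatment and with a normal bulb; the labels do not say whether they shared litters with the sFlt1 mice. The comparison sets receptor RNA in the nose of sFlt1 mice, which had a small bulb, beside that of WT mice. Bulb loss, the decoy receptor and the transgenes came together, so their parts cannot be told apart here.

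Library totals were 30300680, 41669010 and 44449029 counts in sFlt1 replicates 1, 2 and 3, and 32194320, 28832424 and 46444862 counts in control replicates 1, 2 and 3. Against the male label, Xist was at 523.7 CPM (counts per 1000000 of the TMM-scaled library size) in sFlt1 replicate 3 and 709.9 CPM in control replicate 1, and at 0.371 CPM or less in the other 4 libraries. Control replicate 3 held Gad1, a marker of inhibitory brain neurons, at 568.6 CPM, against 27.4 CPM or less elsewhere. Vomeronasal receptor genes summed to 259 CPM in sFlt1 replicate 1 and to between 22.3 and 83.0 CPM in the others. Flt1 itself was at 6.42, 2.36 and 9.79 CPM in sFlt1 mice and 3.71, 2.81 and 11.1 CPM in controls, and the counts do not tell transgene from endogenous reads. Many calls and medians that changed when these libraries were left out are given beside the result, though not all are.

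The coding sequences show how alike these receptors are, which bears on how their reads can be told apart. All 53 matched a coding transcript of GENCODE M21. By family synonym in RefSeq (GRCm38.p6), 17 belong to MOR256, 10 to MOR218, 7 each to MOR250 and MOR263, 5 to MOR156, 3 to MOR267 and 1 each to MOR121 and MOR249, and 2 have none. Median nucleotide identity was 63.4% over the 236 pairs within a family and 54.0% over the 1039 pairs between families. Below is the most conserved stretch of 30 bases, which encodes the motif at the inner end of the third transmembrane helix that marks odorant receptors, first as the majority base at each position and then in 7 receptors on which the results below turn. Capitals mark bases that differ from the majority.
majority: atggcctttgaccgctatgtggctatctgc
Olfr124 (MOR256): atggcctttgaccgTtTtgCTgcCatTtgc
Olfr131 (MOR256): atggcctttgaTcgctatgtggcCatctgc
Olfr133 (MOR256): atgTcctttgaccgAtatgtggcCatctgc
Olfr107 (MOR156): atggcTAttgaccgctatgCTgctatctgc
Olfr97 (MOR156): atggcTAttgaccgctatgCTgctatctgc
Olfr129 (MOR263): atggcctttgaccgctGCAtggcCatAtgc
Olfr119 (MOR263): atggcTtAtgaccgctGCAtggcCatAtgc
Olfr107 and Olfr97 have the same 30 bases, as do 4 of the 5 MOR156 receptors, while the 17 MOR256 receptors have 13 different versions. The majority base was held by 84.3% of the receptors on average over these positions. The average was 75.7% over the aligned positions where most receptors share a base, which leaves out the more variable ones.

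The nearest copies are closer still. Olfr55 and Olfr239, neighbours in the proximal block, are 98.7% identical over 957 coding bases, Olfr110 and Olfr111 98.1%, and Olfr117 and Olfr130 97.2%. A stretch of 60 coding bases of the closest pair is shown with its differences in capitals.
Olfr55: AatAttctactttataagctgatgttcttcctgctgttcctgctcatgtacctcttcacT
Olfr239: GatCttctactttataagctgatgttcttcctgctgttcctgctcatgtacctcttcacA
Of the windows of 50 bases in their transcripts, 55.3% in Olfr55 and 71.5% in Olfr239 also occur in another receptor of the table, so the split of reads between these 2 is uncertain. In all, 22 of the 53 had over 10% shared windows. Olfr124, Olfr131, Olfr132, Olfr94, Olfr96, Olfr123 and Olfr137 had none, and of the receptors named for their differences below, Olfr107 had 6.30%, Olfr133 5.69%, Olfr129 3.30% and Olfr97 14.2%.

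Summed over the 53, chromosome 17 receptors were lower in sFlt1 mice on average, with overlap between the groups. The sum was 104, 218.05 and 57.5 CPM in sFlt1 replicates 1, 2 and 3, against 361, 322 and 179 CPM in control replicates 1, 2 and 3. The mean was 127 ± 82.6 CPM in sFlt1 mice and 287 ± 95.8 CPM in controls (SD, n = 3 each), and the difference of the mean log2 values was -1.33. Only sFlt1 replicate 2 crossed into the control range, lying above control replicate 3. Without sFlt1 replicate 3 the log2 difference was -0.87, and with the 2 Xist-positive libraries left out it was -0.67.

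The receptor repertoire as a whole was also lower on average, again with sFlt1 replicate 2 above control replicate 3. All receptor counts together made up 0.246%, 0.491% and 0.1701% of the library in sFlt1 mice, against 0.648%, 0.622% and 0.420% in controls. Of these receptor counts, chromosome 17 held 3.98%, 4.88% and 3.31% in sFlt1 mice, and 5.83%, 5.05% and 4.11% in controls. The widest of their 95% Wilson intervals, which cover counting error only, ran from 3.85% to 4.13% in sFlt1 replicate 1. The mean share was 4.06% ± 0.79 in sFlt1 mice and 4.997% ± 0.86 in controls (SD, n = 3 each), a difference of -0.94 percentage points with sFlt1 replicate 2 above control replicate 3 again. Leaving out control replicate 1 gave -0.52, leaving out sFlt1 replicate 3 gave -0.57, and it was -0.15 with the 2 Xist-positive libraries left out. Among the 18 chromosomes that carry receptors, 9 had a log2 share ratio below 0, and the -0.30 of chromosome 17 was the second lowest after the X chromosome, where 7 receptors gave -0.49.

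Set against mature neuron markers, the mean level of the chromosome 17 receptors was similar in both groups, with a wide spread among controls. There were 23.9, 26.0 and 24.0 receptor counts per 1000 counts of 10 mature neuron markers in sFlt1 mice, and 29.7, 25.5 and 19.0 in controls. The means were 24.6 ± 1.14 in sFlt1 mice and 24.7 ± 5.43 in controls (SD, n = 3 each), so all 3 sFlt1 mice lay inside the control range. The markers themselves summed to 4347, 8399 and 2392 CPM in sFlt1 mice and 12126, 12643 and 9436 CPM in controls, without overlap.

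**Figure D1:**
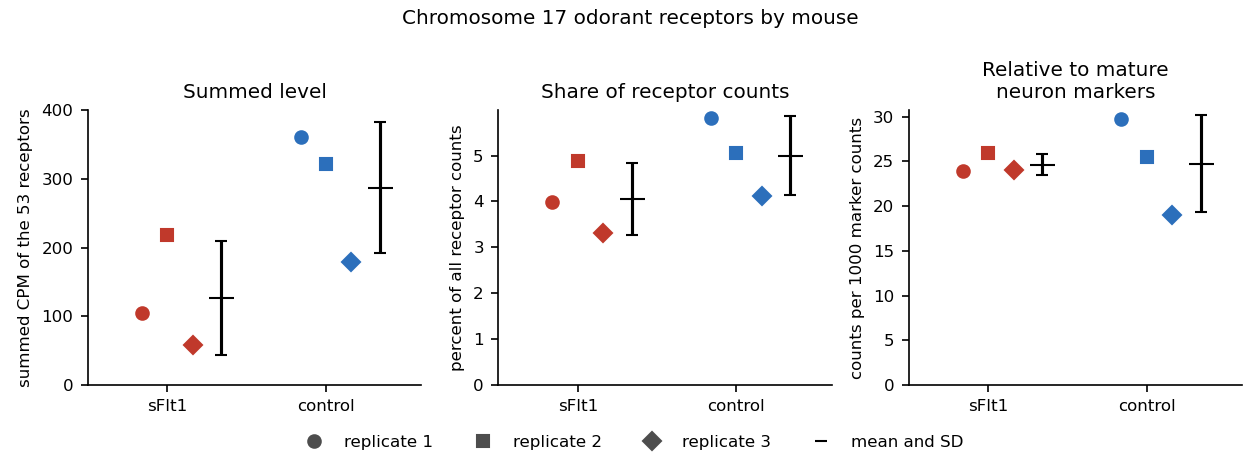
Values of the 53 chromosome 17 receptors in each mouse: summed level in CPM, share of all receptor counts in percent, and counts per 1000 counts of mature neuron markers. Points are mice, bars the mean and SD; the summed level and the share overlap through sFlt1 replicate 2 and control replicate 3, and on the marker scale the sFlt1 mice sit between 23.9 and 26.0.

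Both blocks were lower on average in sFlt1 mice, each with overlap. The MHC block summed to 91.8, 182 and 48.4 CPM in sFlt1 mice and 290.2, 276 and 154 CPM in controls, and the proximal block to 12.3, 36.1 and 9.08 CPM in sFlt1 mice and 70.5, 46.3 and 24.6 CPM in controls. The proximal block held 14.7% ± 2.55 of the chromosome 17 receptor counts in sFlt1 mice and 15.9% ± 3.19 in controls (SD, n = 3 each), with overlap. The median log2 fold change was -1.35 over the 46 tested receptors of the MHC block and -1.31 over the 4 of the proximal block.

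Levels differed widely among the receptors. Per kilobase of exon, Olfr131 came first with a mean over all mice of 6.48 CPM per kb, then Olfr124 with 5.02, Olfr138 with 3.96, Olfr110 with 3.29 and Olfr117 with 2.77. The order among the first 3 did not exceed the spread between mice: Olfr131 ranged from 0.828 to 6.61 CPM per kb in sFlt1 mice and from 2.83 to 18.4 in controls, and Olfr124 from 1.86 to 4.18 in sFlt1 mice and from 5.24 to 7.93 in controls. Olfr98, Olfr761 and Olfr108 came last, at 0.180, 0.151 and 0.112 CPM per kb, and were the only receptors left out of the whole-library test for low counts. Olfr108 had 1, 6 and 0 counts in sFlt1 mice and 0, 15 and 0 in controls, and Olfr761 had 2, 2 and 0 in sFlt1 mice and 0, 23 and 0 in controls. Between 50 and 53 of the 53 had at least 1 count in each library, and thinned to 74429 receptor counts per mouse the expected number was 51.8 ± 1.62 in sFlt1 mice and 51.3 ± 1.53 in controls (SD, n = 3 each).

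**Figure D2:**
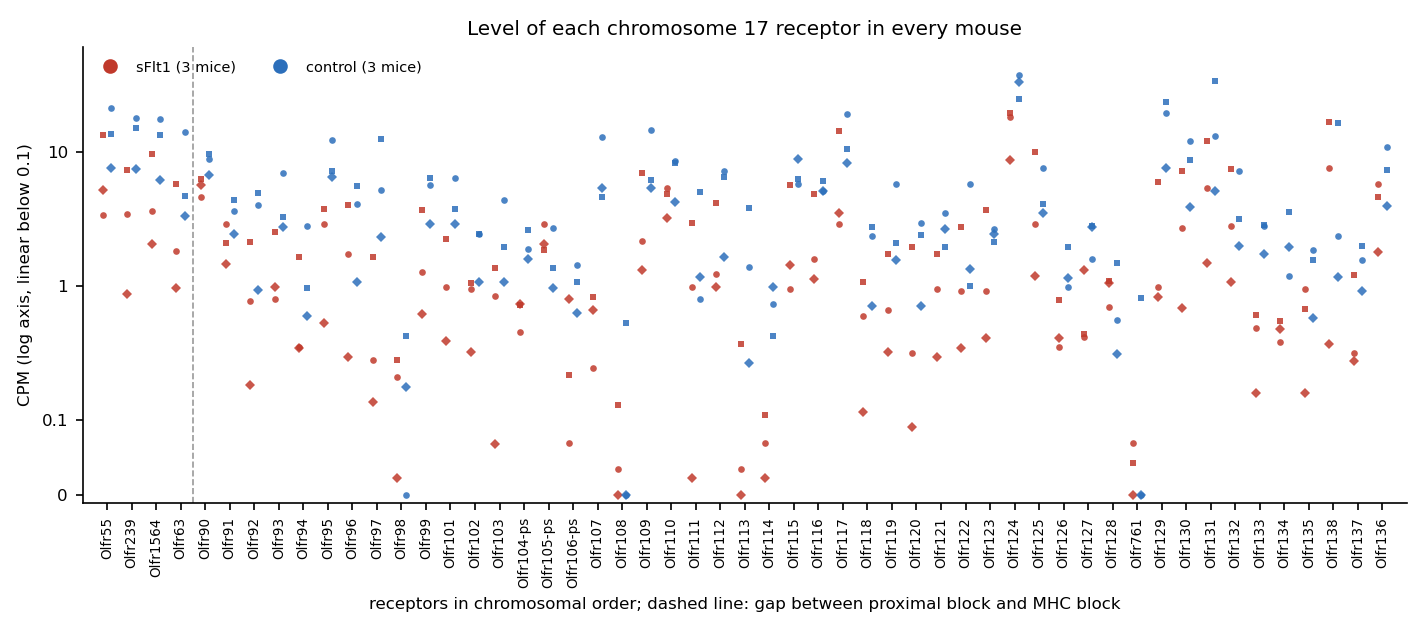
CPM of each chromosome 17 receptor in every mouse on a log axis (linear below 0.1), in chromosomal order, with sFlt1 mice left of controls. Olfr124 reaches 37.0 CPM in a control, while Olfr108 and Olfr761 are at 0 in 1 sFlt1 mouse and in 2 controls.

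Olfr124, known as SR1 and described in mice as a broadly tuned receptor, held the most counts of the group. It had 517, 894 and 377 counts in sFlt1 replicates 1, 2 and 3, against 1249, 687 and 1467 in control replicates 1, 2 and 3. That was 18.1, 19.5 and 8.66 CPM in sFlt1 mice and 37.0, 24.5 and 32.8 CPM in controls, without overlap. By edgeR its log2 fold change was -1.03, with an SE of 0.35 and an adjusted p of 0.43. Per 10000 receptor counts it stood at 69.5, 43.7 and 49.9 in sFlt1 mice and 59.9, 38.3 and 75.3 in controls, which overlapped fully, and the receptor-only log2 fold change was -0.09 (SE 0.52), turning to 0.08 when TMM factors were computed over receptors.

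Next in mean CPM, apart from Olfr129 described below, came 3 receptors whose groups overlapped. Olfr131 was at 5.37, 11.9 and 1.49 CPM in sFlt1 mice and 13.0, 33.3 and 5.10 CPM in controls, where it was the top receptor of control replicate 2. Olfr55, the highest of the proximal block, was at 3.40, 13.4 and 5.19 CPM in sFlt1 mice and 21.2, 13.5 and 7.60 CPM in controls. Olfr117 was at 2.91, 14.2 and 3.52 CPM in sFlt1 mice and 18.9, 10.4 and 8.16 CPM in controls. In each of the 3, sFlt1 replicate 2 reached into the control range, and in Olfr131 sFlt1 replicate 1 did too. Their whole-library log2 fold changes were -1.45 (SE 0.89), -0.94 (SE 0.60) and -0.86 (SE 0.68), with edgeR adjusted p of 0.57 or more. Leaving out 1 mouse moved Olfr131 to between -2.32 without sFlt1 replicate 2 and -0.53 without control replicate 2. It moved Olfr55 to between -1.71 without sFlt1 replicate 2 and -0.51 without control replicate 1, and Olfr117 to between -1.96 and -0.40 without the same mice. In the receptor-only fit Olfr55 and Olfr117 lay at 0.00 (SE 0.58) and -0.05 (SE 0.59).

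In the whole-library fit, each gene was tested between the groups with scaling over all genes. Estimates of the chromosome 17 receptors were nearly all lower in sFlt1 mice, and none passed by edgeR. Of the 50 tested, 47 had lower estimates, against 48.7% of all 19899 genes and 88.9% of the 977 tested receptors on other chromosomes, and 0 passed at an adjusted p under 0.05, as for all genes (0%). At an unadjusted p under 0.05, 15 were lower, against 6.24% of all genes, and 0 were higher, against 4.84%. The median log2 fold change was -1.35 over these 50, -1.06 over 977 receptors of other chromosomes and 0.02 over all genes tested. It was -2.16 without sFlt1 replicate 2 and -0.60 with the 2 Xist-positive libraries left out. The 15 became 8 with those 2 left out, against 6.30% of all genes, and 31 without sFlt1 replicate 2, against 7.28%. Without sFlt1 replicate 1 the median was -1.11 and the count 6, against 3.51%. Without control replicate 3 they were -1.58 and 17, against 3.87%.

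DESeq2, run as an alternative, called 6 of the 50 lower and 0 higher, where it called 1.59% of all genes lower and 0.764% higher. These percentages are of all 19899 genes, including those to which DESeq2 gave no adjusted p. The 6 were Olfr107, Olfr133, Olfr134, Olfr104-ps, Olfr97 and Olfr129. Olfr107 was called in every run that left out 1 mouse or the 2 Xist-positive libraries. Olfr104-ps was called in only 1 of these runs, the one without sFlt1 replicate 3, and its share of receptor counts overlapped between the groups. The count of called receptors ranged from 2 to 23 when 1 mouse was left out, while the share of all genes called lower ran from 0.615% to 3.77%. The 23 came without sFlt1 replicate 2, where that share was 3.77%. With the 2 Xist-positive libraries left out it was 3, against 3.55% of all genes. The authors' deposited table of all genes gives the same 6 and Olfr114 as lower at an adjusted p under 0.05, where it gives 1.11% of its genes, and no chromosome 17 receptor as higher, where it gives 0.446%. With all mice, DESeq2 as run here gave Olfr114 an unadjusted p of 0.00037 but no adjusted p, so it could not be called. In the authors' deposited table of rescaled receptor values, 1 of the 53, Olfr97, is lower, where 0.434% of the receptors are.

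Groups that did not overlap were counted as well. On the CPM scale, 19 of the 50 receptors lay lower in all 3 sFlt1 mice than in any control, against 9.51% of all genes, and 0 lay higher, against 8.76%. Among 977 receptors of other chromosomes, 30.3% lay lower. With fewer mice non-overlap is more frequent across all genes. The count was 38 without control replicate 3, against 14.2% of all genes and 52.5% of receptors on other chromosomes. It was 38 without sFlt1 replicate 2, against 18.0% and 57.6%. With the 2 Xist-positive libraries left out it was 20, against 22.8% and 39.3%. As a share of receptor counts, 8 of 51 lay lower, against 10.3% of all receptors tested, and 1, Olfr128, lay higher, against 6.99%.

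**Figure D3:**
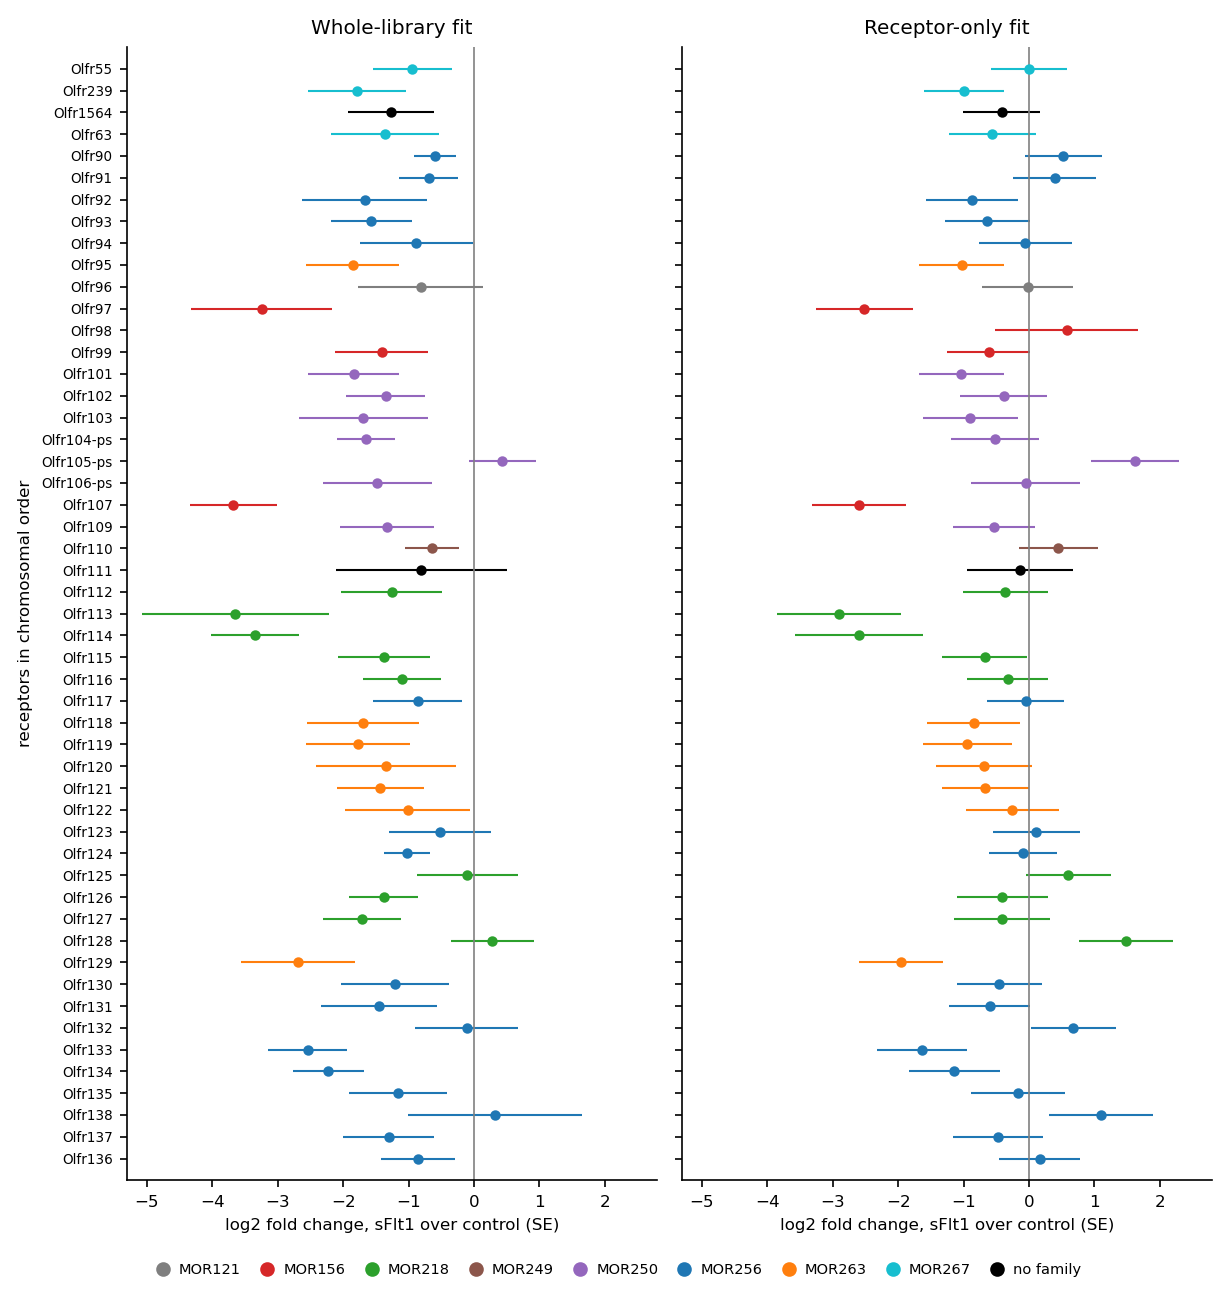
Log2 fold changes of sFlt1 over control mice with their SE for each tested chromosome 17 receptor in chromosomal order, coloured by family, from the whole-library fit on the left and the receptor-only fit on the right. Whole-library estimates lie below 0 for 47 of 50 receptors, and receptor-only estimates for 39 of 51; Olfr107, Olfr97, Olfr113 and Olfr114 lie farthest to the left in both.

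The receptor-only fit asks which receptors differ within the repertoire, since its library size is the summed receptor count of each mouse. Of 51 chromosome 17 receptors tested, 39 had lower estimates, against 55.8% of all 1059 receptors, and 0 passed by edgeR in either direction, as for all receptors (0%). The count of lower estimates was 32 with TMM factors over receptors and 33 with DESeq2. At an unadjusted p under 0.05, 6 were lower (6.61% of all receptors) and 2 higher (5.57%). The median log2 fold change was -0.42 over these 51 and -0.10 over 1007 receptors of other chromosomes. It was -0.22 with TMM factors over receptors, a scaling that moved the median of all receptors to 0.09, against -0.12. Leaving out mice moved it to -0.27 without control replicate 1 or sFlt1 replicate 3, to -0.76 without sFlt1 replicate 2 and to -0.01 with the 2 Xist-positive libraries left out. DESeq2 called 2 of them lower (0.755% of all receptors) and 0 higher (2.55%). Without sFlt1 replicate 2, edgeR called 3 lower, Olfr129, Olfr97 and Olfr113, against 0.931% of all receptors.

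Olfr107, in the MHC block at 37710117 to 37718368 on the plus strand, had the smallest p of the chromosome 17 receptors in both fits. It had 7, 38 and 29 counts in sFlt1 mice, against 430, 129 and 240 in controls. That was 0.246, 0.829 and 0.667 CPM in sFlt1 mice and 12.8, 4.595 and 5.37 CPM in controls, without overlap. The estimate was -3.68 on the log2 scale with an SE of 0.67; the adjusted p was 0.43 by edgeR and 4.2e-06 by DESeq2. Relative to all receptors it was lower as well, at 0.940, 1.86 and 3.84 per 10000 receptor counts in sFlt1 mice and 20.6, 7.20 and 12.3 in controls, an estimate of -2.60 on the log2 scale with an SE of 0.71, where the adjusted p was 0.12 by edgeR and 0.018 by DESeq2. The receptor-only DESeq2 call was lost without control replicate 1, control replicate 3, sFlt1 replicate 1 or sFlt1 replicate 2.

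Olfr97, of the same MOR156 family and at 37541854 to 37548221 on the minus strand, showed a similar difference. It had 8, 76 and 6 counts in sFlt1 mice and 176, 351 and 104 in controls, or 1.08, 3.71 and 0.794 per 10000 receptor counts in sFlt1 mice and 8.44, 19.6 and 5.34 in controls. All 3 sFlt1 mice lay under every control on either scale. The log2 fold change was -3.25 (SE 1.08) in the whole-library fit and -2.52 (SE 0.74) in the receptor-only fit, where the adjusted p was 0.14 by edgeR and 0.028 by DESeq2. This DESeq2 call was lost when any mouse other than sFlt1 replicate 2 was left out, and when the 2 Xist-positive libraries were. In the whole-library fit the adjusted p was 0.43 by edgeR and 0.033 by DESeq2; the DESeq2 call stood without control replicate 3 or sFlt1 replicate 2 and was lost in the other runs, and the estimate was -5.001 without sFlt1 replicate 2. Olfr99, the only other family member tested in the whole-library fit, was at 1.264, 3.71 and 0.621 CPM in sFlt1 mice and 5.61, 6.41 and 2.91 CPM in controls, with overlap.

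Olfr129, the most abundant MOR263 receptor, had 28, 271 and 36 counts in sFlt1 mice and 651, 653 and 340 in controls. Per 10000 receptor counts it stood at 3.76, 13.2 and 4.76 in sFlt1 mice and 31.2, 36.4 and 17.4 in controls, without overlap. Its log2 fold change was -2.69 (SE 0.87) in the whole-library fit, where the adjusted p was 0.43 by edgeR and 0.036 by DESeq2. The DESeq2 call stood without control replicate 3 or sFlt1 replicate 2 and was lost without each of the other 4 mice and with the 2 Xist-positive libraries left out. In the receptor-only fit the estimate was -1.95 (SE 0.64), with an adjusted p of 0.17 by edgeR and 0.060 by DESeq2. Without sFlt1 replicate 2 the estimates were -4.21 in the whole-library fit and -2.73 in the receptor-only fit.

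Of the MOR256 family, Olfr133 and Olfr134 had the smallest p. Olfr133 was at 0.491, 0.611 and 0.161 CPM in sFlt1 mice and 2.82, 2.85 and 1.74 CPM in controls, a log2 fold change of -2.55 (SE 0.60). The adjusted p was 0.43 by edgeR and 0.0057 by DESeq2, and the DESeq2 call was lost without control replicate 2 and with the 2 Xist-positive libraries left out. As a share it was 1.88, 1.37 and 0.926 per 10000 receptor counts in sFlt1 mice and 4.56, 4.46 and 4.002 in controls, also without overlap. Olfr134, 95.3% identical to it, was at 0.386, 0.546 and 0.483 CPM in sFlt1 mice and 1.19, 3.53 and 1.97 CPM in controls, a log2 fold change of -2.22 (SE 0.54). The adjusted p was 0.43 by edgeR and 0.018 by DESeq2, and the DESeq2 call was lost without control replicate 2, control replicate 3 or sFlt1 replicate 1. As a share Olfr134 overlapped, at 1.48, 1.22 and 2.78 in sFlt1 mice and 1.92, 5.52 and 4.52 in controls.

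A pair of MOR218 neighbours rests on few counts. Olfr114 had 2, 5 and 1 counts in sFlt1 mice and 25, 12 and 44 in controls, a log2 fold change of -3.35 (SE 0.67) in the whole-library fit and -2.60 (SE 0.98) in the receptor-only fit. Olfr113 had 1, 17 and 0 counts in sFlt1 mice and 47, 107 and 12 in controls, where sFlt1 replicate 2 lay above control replicate 3 in CPM. Its log2 fold change was -3.65 (SE 1.43) and -2.90 (SE 0.95) in the 2 fits by edgeR, and -3.74 and -2.85 by DESeq2.

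In the whole-library fit 3 receptors had higher estimates, and in the receptor-only fit 12 had; none passed by edgeR or DESeq2 with all mice. Olfr105-ps, typed as protein-coding in the deposited table despite its symbol, had 82, 85 and 89 counts in sFlt1 mice and 91, 38 and 43 in controls. Per 10000 receptor counts that was 11.0, 4.15 and 11.8 in sFlt1 mice and 4.36, 2.12 and 2.21 in controls, with sFlt1 replicate 2 just under control replicate 1. Its log2 fold change was 0.43 (SE 0.51) in the whole-library fit and 1.62 (SE 0.68, edgeR adjusted p = 0.30) in the receptor-only fit, where DESeq2 called it higher without sFlt1 replicate 2. Olfr128 had 20, 50 and 46 counts in sFlt1 mice and 19, 42 and 14 in controls. It was the only tested receptor of the group whose share lay above all controls in every sFlt1 mouse, at 2.69, 2.44 and 6.09 per 10000 receptor counts in sFlt1 mice and 0.911, 2.34 and 0.718 in controls. Its estimates were 0.28 (SE 0.64) and 1.49 (SE 0.72) in the 2 fits, and the first turned to -0.11 without control replicate 3.

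Olfr138 and Olfr132 were next among the receptors with higher receptor-only estimates, and their groups overlapped. Olfr138 had 215, 763 and 16 counts in sFlt1 mice and 80, 456 and 52 in controls, a 17.6-fold range of its share among sFlt1 mice and a 9.53-fold range among controls. Its whole-library log2 fold change was 0.32 (SE 1.33), with turns to -0.09, -0.18 and -0.74 without control replicate 1, control replicate 3 or sFlt1 replicate 2. Olfr132, also of MOR256, had 80, 341 and 47 counts in sFlt1 mice and 241, 88 and 89 in controls, with log2 fold changes of -0.11 (SE 0.79) in the whole-library fit and 0.68 (SE 0.65) in the receptor-only fit; the first turned to 0.58 without control replicate 1 and to 1.01 with the 2 Xist-positive libraries left out. The receptor-only log2 fold change of Olfr138 was 1.10 (SE 0.79).

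**Figure D4:**
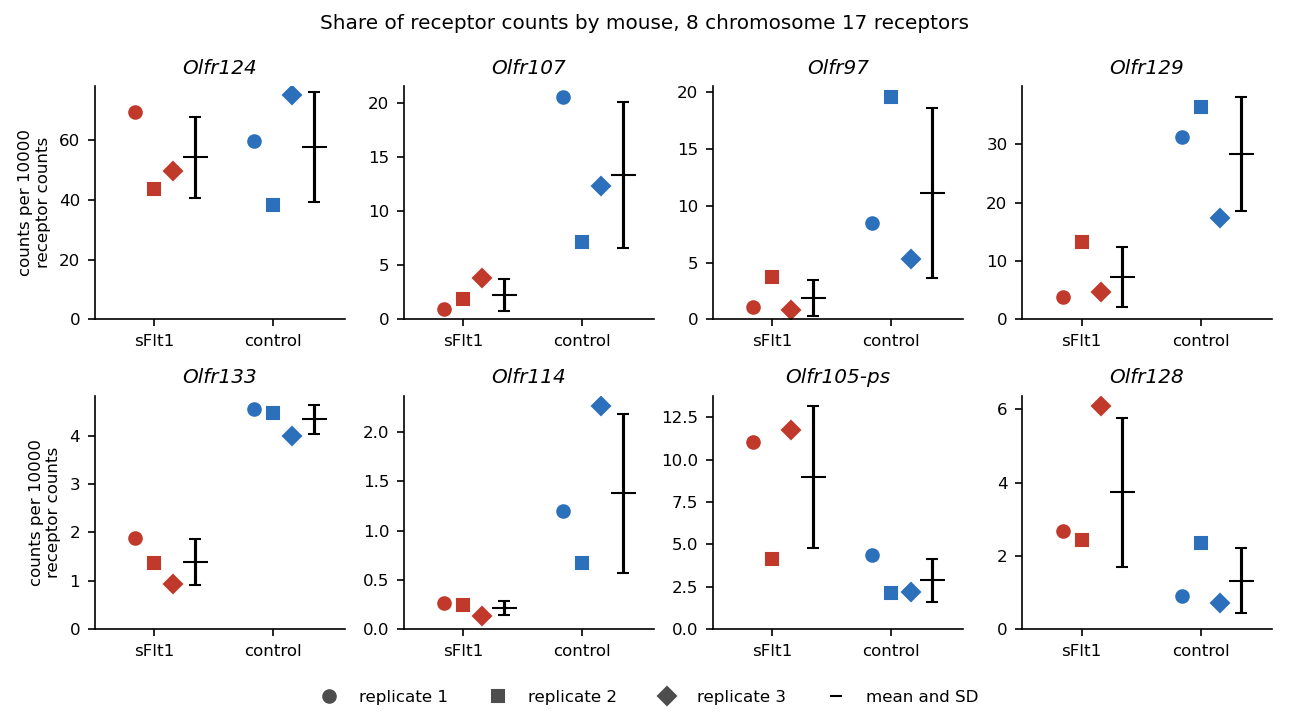
Counts per 10000 receptor counts in each mouse for 8 chromosome 17 receptors, with the mean and SD beside the points. Olfr107, Olfr97, Olfr129, Olfr133 and Olfr114 lie lower in every sFlt1 mouse than in any control, Olfr124 and Olfr105-ps overlap, and Olfr128 lies higher in every sFlt1 mouse.

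By family, the shares of MOR156, MOR263 and MOR256 did not overlap between the groups, while those of MOR218, MOR250, MOR267, MOR249, MOR121 and the 2 receptors without a family did. MOR218, for example, held 11.2% ± 2.84 in sFlt1 mice and 10.9% ± 2.59 in controls (SD, n = 3 each). For scale, 10.3% of all single receptors tested lay lower and 6.99% higher without overlap, as shares of receptor counts. No such background was computed for families. MOR156 receptors held 1.96%, 3.03% and 2.52% of the chromosome 17 receptor counts in sFlt1 mice, against 6.54%, 7.59% and 6.02% in controls. MOR263 receptors held 7.02%, 8.66% and 4.40% in sFlt1 mice and 14.3%, 12.6% and 11.8% in controls. Both were lower in every sFlt1 mouse than in any control. MOR256, the largest family, was higher in every sFlt1 mouse, with 55.4%, 47.2% and 48.2% in sFlt1 mice and 38.0%, 43.0% and 43.6% in controls. Shares of one sum move against each other, and the summed CPM of MOR256 overlapped, at 57.7, 103 and 27.7 CPM in sFlt1 mice and 137, 139 and 78.0 CPM in controls.

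Single receptors carried much of these family shares. Each share in the next sentences is of the chromosome 17 receptor counts that remain once the named receptors are taken out. Without Olfr97 and Olfr107, MOR156 held 1.46%, 1.91% and 1.14% in sFlt1 mice and 1.64%, 2.41% and 1.80% in controls, and the groups overlapped. Without Olfr129, MOR263 held 6.13%, 6.11% and 3.00% in sFlt1 mice and 9.495%, 5.81% and 7.88% in controls, again with overlap. MOR256 without Olfr124 lay higher in each sFlt1 mouse on this reduced sum. It held 46.0%, 42.0% and 39.0% in sFlt1 mice and 30.9%, 38.3% and 30.9% in controls. With Olfr124 kept in the total, the shares of the other MOR256 receptors overlapped between the groups. Whole-library estimates were lower for 7 of 7 tested MOR263 receptors, 3 of 3 of MOR156 and 16 of 17 of MOR256, beside 88.9% of the receptors on other chromosomes. Their medians were -1.69 for MOR263, -3.25 for MOR156 and -1.03 for MOR256.

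**Figure D5:**
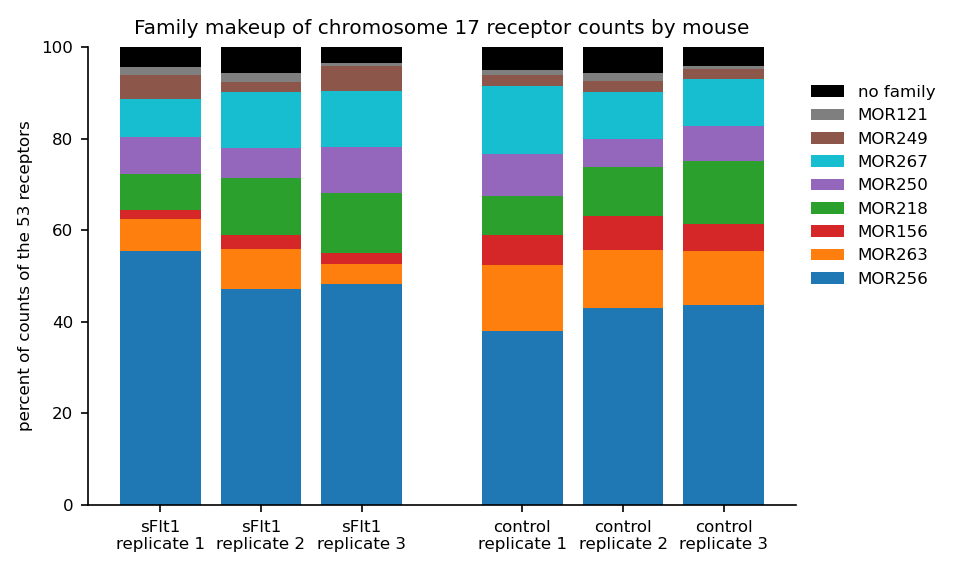
Share of the chromosome 17 receptor counts held by each MOR family in each mouse, in percent, sFlt1 mice on the left. MOR263 runs from 4.40% to 8.66% in sFlt1 mice and from 11.8% to 14.3% in controls, and MOR256 from 47.2% to 55.4% in sFlt1 mice and from 38.0% to 43.6% in controls.

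The MOR263 family also offers a pair of start regions for comparison. Of 36 receptors with a RefSeq start window (GRCm38.p6, 250 bases before to 50 after the annotated start), 33 have that start within 100 bases of the coding start, so those windows are not shown as promoters. Only Olfr110, Olfr119 and Olfr122 have a start over 1000 bases away. Olfr119 and Olfr122, both MOR263, are shown for how alike these windows are: 86.0% of positions match, and capitals mark the longest run they share, 42 bases that lie before the start in Olfr122 and end just past it in Olfr119.
Olfr119 (chr17:37696435-37696734, plus strand): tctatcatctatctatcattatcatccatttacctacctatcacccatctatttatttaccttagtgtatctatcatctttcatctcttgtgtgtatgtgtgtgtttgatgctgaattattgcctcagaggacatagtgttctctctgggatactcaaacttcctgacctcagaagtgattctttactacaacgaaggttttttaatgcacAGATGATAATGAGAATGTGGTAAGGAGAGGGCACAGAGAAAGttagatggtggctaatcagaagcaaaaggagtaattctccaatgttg
Olfr122 (chr17:37768392-37768691, plus strand): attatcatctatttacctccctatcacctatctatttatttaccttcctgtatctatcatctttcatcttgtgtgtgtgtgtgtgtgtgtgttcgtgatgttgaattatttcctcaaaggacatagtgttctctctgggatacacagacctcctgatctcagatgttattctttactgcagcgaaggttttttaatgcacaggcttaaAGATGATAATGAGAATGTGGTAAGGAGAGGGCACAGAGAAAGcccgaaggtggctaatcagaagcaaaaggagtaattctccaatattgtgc
The homeodomain core TAATTA, searched on both strands, was in none of the 3 windows, and in 5.31% of all 27025 RefSeq windows of the same length. The Olf/Ebf consensus was in none of the 3 either, and in 0.914% of all windows. Olfr119 was at 0.667, 1.75 and 0.322 CPM in sFlt1 mice and 5.75, 2.10 and 1.57 CPM in controls, and Olfr122 at 0.913, 2.73 and 0.345 CPM in sFlt1 mice and 5.75, 0.997 and 1.34 CPM in controls. In both, sFlt1 replicate 2 lay inside the control range.

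The shares of single chromosome 17 receptors differed among mice. As a share of receptor counts, sFlt1 replicate 2 held the highest value of its group for 31 of the 53 and sFlt1 replicate 3 the lowest for 31. Among controls, replicate 1 held the highest value for 26 and replicate 3 the lowest for 27. These tallies also carry the summed share of the 53, which was highest and lowest in the same mice. It was 4.88% and 3.31% in those sFlt1 mice and 5.83% and 4.11% in those controls. The median ratio of highest to lowest share was 2.72 among sFlt1 mice and 2.18 among controls. The Bray-Curtis distance between the makeups of 2 mice ran from 19.7% to 38.9%. The closest pair was control replicates 1 and 3, followed by sFlt1 replicate 2 and control replicate 1 at 20.5%, and the farthest was sFlt1 replicate 3 and control replicate 2. The effective number of receptors, which counts a receptor by its share, was 17.4, 24.6 and 17.3 in sFlt1 mice and 25.8, 24.8 and 17.9 in controls. Ratios, distances and effective numbers were not brought to equal depth, so counting error adds more spread in thin libraries. Chromosome 17 receptor counts were 2965, 9991 and 2500 in sFlt1 mice and 12162, 9052 and 8008 in controls.

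Genes of odor transduction, which act downstream of every receptor, had lower estimates throughout. All 11 had lower estimates, against 48.7% of all genes, with a median of -1.14. Of these, 0 passed by edgeR and 7 were lower at an unadjusted p under 0.05, against 6.24% of all genes. DESeq2 called 1 lower, the exchange factor Ric8b, against 1.59% of all genes. Gnal, the olfactory G protein subunit, was at 1099 ± 659 CPM in sFlt1 mice and 2380 ± 421 CPM in controls (SD, n = 3 each), and Gnb1, a G protein beta subunit, was at 1296 ± 274 CPM in sFlt1 mice and 2257 ± 285 CPM in controls. Ric8b was at 349 ± 160 CPM in sFlt1 mice and 878 ± 230.2 CPM in controls, and Ano2, a calcium-activated chloride channel, at 142 ± 81.7 CPM in sFlt1 mice and 346 ± 65.5 CPM in controls. These 4 were lower in every sFlt1 mouse than in any control, as were 9.51% of all genes. Without sFlt1 replicate 2 DESeq2 called 10 of the 11 lower, against 3.77% of all genes, with a median of -1.75. With any other mouse left out it called none, nor with the 2 Xist-positive libraries left out, where the median was -0.71. Genes that act in receptor expression and transport were less uniform: 9 of 12 had lower estimates, against 48.7% of all genes. Their median was -0.36, and 0 passed by edgeR or DESeq2. Without sFlt1 replicate 2, DESeq2 called Reep1 and Ebf4 lower, against the same 3.77% of all genes. Atf5, a stress-response factor needed for neuron maturation, was at 855 ± 306 CPM in sFlt1 mice and 1391 ± 364 CPM in controls, and Ebf3, an Olf/Ebf family factor, at 355 ± 79.3 CPM in sFlt1 mice and 477 ± 124 CPM in controls. Reep1, a receptor transport cofactor, was at 48.4 ± 11.95 CPM in sFlt1 mice and 73.9 ± 8.08 CPM in controls. Kdm1a, the histone demethylase that acts in receptor choice, was at 118 ± 38.7 CPM in sFlt1 mice and 77.4 ± 1.38 CPM in controls.

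Genes between the receptors had estimates close to 0. Of the 4 protein-coding neighbours inside the blocks, 3 were tested and had higher estimates (48.7% of all genes had lower ones), with a median of 0.26, and 0 passed by edgeR or DESeq2. Zfp955a, a zinc finger gene in the proximal block, was at 15.9 ± 1.19 CPM in sFlt1 mice and 13.3 ± 0.93 CPM in controls (SD, n = 3 each; log2 fold change 0.26, SE 0.22). H2-M3, a non-classical MHC class I gene, was at 2.10 ± 0.84 CPM in sFlt1 mice and 1.59 ± 0.44 CPM in controls, and H2-M2 at 0.3398 ± 0.119 CPM in sFlt1 mice and 0.292 ± 0.1597 CPM in controls. Ubd, a ubiquitin-like gene, was at 0.305 ± 0.161 CPM in sFlt1 mice and 0.101 ± 0.0719 CPM in controls and was not tested. Of 12 H2-M genes, 5 were tested, 2 with lower and 3 with higher estimates, and 0 passed. Without sFlt1 replicate 1, 4 of 5 were lower and DESeq2 called 1 lower, H2-M10.3, against 0.809% of all genes. The H2-M10 genes, known from vomeronasal neurons, summed to 12.2 CPM in sFlt1 replicate 1 and to between 0.138 and 4.90 CPM in the other 5 libraries, alongside the vomeronasal receptors named above.

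Levels of cell type markers differed between these same libraries, and their part in the receptor differences was not tested. All 10 mature neuron markers had lower estimates, against 48.7% of all genes, with a median of -1.14, and 0 passed by edgeR or DESeq2. Stoml3, a cilium protein, was at 1009 ± 519 CPM in sFlt1 mice and 2205 ± 247 CPM in controls, and Omp, the olfactory marker protein, at 1317, 2366 and 466 CPM in sFlt1 mice and 3598, 4056 and 2836 CPM in controls. Of 6 immature neuron markers 5 had higher estimates, with summed levels of 1061 to 1263 CPM in sFlt1 mice and 508 to 926 CPM in controls, and of 4 globose basal cell markers all had, at 133 to 172 CPM in sFlt1 mice and 39.4 to 98.6 CPM in controls. By DESeq2, Dpysl3 of the immature neuron list and Neurog1 and Insm1 of the basal cell list were called higher. Of all genes, DESeq2 called 0.764% higher and 1.59% lower. Sustentacular cell markers overlapped, at 6135 to 9539 CPM in sFlt1 mice and 6215 to 11106 CPM in controls, and 3 ciliated cell markers were at 643 to 760 CPM in sFlt1 mice and 148 to 466 CPM in controls, of which DESeq2 called Tmem212 higher. The 4 markers of bulb or brain neurons summed to 1.99 to 53.2 CPM in sFlt1 mice and 46.9 to 926 CPM in controls, with Gad1 at its highest in control replicate 3; Th and Gabra2 were called lower by DESeq2, and the list's median was -4.93. Without control replicate 3 that median was -2.29, with 3 of 4 lower and Th alone called. Without sFlt1 replicate 2, DESeq2 called 9 of the 10 mature neuron markers lower, against 3.77% of all genes, and their median was -1.72. With the 2 Xist-positive libraries left out it called none of them, and the median was -0.77. The calls of Dpysl3, Neurog1 and Insm1 were lost without control replicate 2, control replicate 3 or any 1 sFlt1 mouse. Trpc2, the channel of vomeronasal neurons, was at 0 in all 6 libraries. The other genes of the vomeronasal list were present. Gnao1 was at 215 ± 38.7 CPM in sFlt1 mice and 307 ± 37.4 CPM in controls, and Gnai2 at 150 ± 39.8 and 137 ± 34.7 CPM. Of these, 0 passed by edgeR or DESeq2. With vomeronasal receptor reads in every library, the 0 of Trpc2 does not show that such tissue was absent.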

How the data were processed

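Gene counts, log2 fold changes and p-values were deposited by the authors; per the labels, 200 ng of total RNA went into each library. The submitters' processing notes name cutadapt 3.5, TopHat2 2.2.1, HTSeq 2.0.1, DESeq2 1.26.0 and GRCm39; strand and multi-read settings are not named there. The authors' deposited log2 fold changes and p-values were used only where named, and 42 other per-sample columns were not used. Of 55414 entries, 6250 had no values.

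Counts were analysed as deposited, in R 4.3.3. The main test was edgeR 4.0.16 (quasi-likelihood, TMM factors, filterByExpr, Benjamini-Hochberg adjustment over 19899 genes; threshold 0.05), sFlt1 over control mice. A second edgeR fit used 1059 receptors with summed receptor counts as library size. DESeq2 1.42.0, limma 3.58.1 voom, other scalings and filters, and leaving out mice were alternatives, and the fits were tested on simulated data. Coding sequences are from GENCODE M21 (GRCm38) and start windows from RefSeq. Pairs were aligned with Biopython 1.88 for the identities, and all coding sequences together with mafft 7.526 for the conserved stretch. Nothing was converted between builds.

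The receptors and gene lists were chosen with earlier results of these data known, so sums and shares are described without a p; 3 against 3 mice could not go below 0.1. Named receptors were the 5 with the highest mean CPM, the highest of each block, and the 4 with the smallest p in each direction in each fit; Olfr99, Olfr119 and Olfr122 were added after their values were seen. Of other lists, the most abundant and smallest-p genes were named. Start windows were chosen for their distance from the coding start, after the sequences were read. The labels do not say that mice came from separate litters, so p-values measure only the spread between these samples. Left-out mice for counts of DESeq2 and unadjusted calls, family shares and gene lists were alternatives chosen after seeing the data. Intervals cover counting error only.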

Additional observations from a re-analysis of the deposited data

How the results depend on the processing

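Under the planned scalings and filters, and with voom or a replicate block, no chromosome 17 receptor passed in either edgeR-style fit. DESeq2 called 6 lower in the whole-library fit (1.59% of all genes) and 2 in the receptor-only fit (0.755% of all receptors). Leaving out 1 mouse gave 0 to 3 in the receptor-only edgeR fit, against 0% to 0.931% of all receptors. Same-numbered mice correlated at 0.0256, 0.2458 and 0.3566 over 19899 genes, and not every mouse correlated best with its own. The labels do not say what a replicate number marks. Correlations of deviations from the group means cannot settle whether such mice shared a litter or day. With the replicate block 0 passed, and the medians were -1.53 and -0.48. Leaving out 1 mouse, the whole-library median ran from -2.16 to -0.95 and the receptor-only median from -0.76 to -0.27 (-0.0075 without both libraries with Xist reads). The MHC block over proximal block difference (log2, 0.13) ran from -0.065 to 0.24. The ratio to mature markers (0.02) ran from -0.16 to 0.16, and was -0.011 without Olfr124. With 1 mouse left out, receptors with CPM groups that did not overlap numbered 15 to 38 lower, against 12.2% to 18% of all genes. Higher ones numbered 0 to 1, against 12.3% to 15.5%. Without both libraries with Xist reads 20 were lower and 1 was higher, against 22.8% and 23.3%. On shares with all mice they were 8 lower and 1 higher, against 10.3% and 6.99% of all receptors. Counts of calls under left-out mice were chosen after seeing the data. In the whole-library fit DESeq2 gave 2 to 23 lower, against 0.615% to 3.77% of all genes. Unadjusted edgeR gave 6 to 31 lower, against 3.51% to 7.28%. Without both libraries with Xist reads they gave 3 and 8, against 3.55% and 6.3%. In the receptor-only fit DESeq2 gave 0 to 2 lower, against 0% to 1.86% of all receptors, and 0 to 1 higher, against 0% to 2.89%. Without both libraries with Xist reads it gave 1 lower, against 1.13%. Unadjusted edgeR gave 0 to 2 higher with 1 mouse left out, against 4.34% to 7.17%.

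Estimates near 0 changed sign, and the cause was not tested. In the whole-library fit, leaving out 1 mouse gave -0.11 to 1.12 for Olfr128, -0.74 to 2.21 for Olfr138 and -1.08 to 0.58 for Olfr132, which was 1.01 without both libraries with Xist reads. In the receptor-only fit it gave -0.32 to 0.15 for Olfr124, -0.97 to 0.19 for Olfr131, -0.19 to 0.33 for Olfr55 and -0.48 to 0.27 for Olfr117. Olfr124 was 0.084 with TMM and 0.069 with DESeq2, Olfr117 was 0.13 and 0.12, and 0.30 without both libraries with Xist reads, and Olfr55 was -0.011 with the replicate block. Few counts limit Olfr98, Olfr108, Olfr113, Olfr114 and Olfr761.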
